A study of Mus musculus with 8 samples.

Results

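The genes described here are 10 immediate early response genes, measured in mouse trophectoderm from dams on a control or a high fat diet. They were chosen by symbol, as Fos, Fosb, Jun, Junb, Jund, Egr1, Ier2, Ier3, Dusp1 and Myc, and a gene was taken where a probe set of the array was annotated with that symbol alone. This found 9 of the 10, each with 1 probe set, among 14860 genes measured under 1 symbol. Fosb was not analysed here.

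Immediate early genes are transcribed within minutes of a growth factor, stress or adhesion signal, without need of newly made protein. MAP kinases carry the signal to serum response factor (SRF), its ternary complex partners and CREB, which sit at the promoters of these genes beforehand. Many of the products are transcription factors: Fos and Jun proteins pair through leucine zippers as AP-1, Egr1 binds DNA through zinc fingers and Myc acts with its partner Max. Others, such as the phosphatase Dusp1, switch the kinases off again. In mice, Junb and the Fos relative Fosl1 are needed for a working placenta, the organ to which trophectoderm contributes.

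Trophectoderm forms the outer wall of the blastocyst. It was dissected at embryonic day 4.5 from the abembryonic side, which lies away from the inner cell mass, and pieces from 5 blastocysts made up 1 pool and 1 array. All embryos had C57BL/6J parents. The mothers ate Lab Diet 5015 (control diet, 4 pools) or Teklad 06414 (high fat diet, 4 pools) from weaning to 16 weeks of age and were then mated. The labels call the pools biological replicates but do not say which dams gave each pool, so the tests gauge only pool-to-pool spread, and blastocysts within a pool cannot be told apart. Each pool holds bulk RNA, in which fewer cells of a type and less RNA per cell cannot be told apart.

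The values are log2 signals as the authors deposited them. The number of arrays limits the precision. Array pairs correlated at r between 0.821 and 0.921 over 16015 probe sets with a gene symbol, so none was a copy of another. The arrays differed in overall level by diet: the median over these probe sets ran from 5.60 to 5.71 on control diet arrays and from 5.76 to 5.96 on high fat diet arrays. Background was taken as the 95th percentile of 842 odorant, vomeronasal and taste receptor probe sets on the same array, called the receptor percentile below. Control diet arrays averaged 5.99 ± 0.11 on it and high fat diet arrays 6.35 ± 0.22 (SD, n = 4 each), with the top value, 6.65, on high fat diet replicate 3. Between 4723 and 6635 probe sets lay above it on an array. Of 14 listed trophectoderm markers 13 were measured (Krt8 was not analysed here), and 12 lay above it on at least 4 arrays.

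Promoter sequence shows what the members share and do not share. Those of Ier3 and Jund are printed because these members had the largest measured differences, and those of Fos and Dusp1 because they hold the letters of the cyclic AMP response element or its core. Each is the 250 bases before the annotated start, read 5′ to 3′ on the gene's strand from RefSeq (GRCm38.p6). The positions are chr17:35821463-35821712, plus strand for Ier3, chr8:70697489-70697738, plus strand for Jund, chr12:85473640-85473889, plus strand for Fos and chr17:26508473-26508722, minus strand for Dusp1. Capitals mark every match, on either strand, to any of the motifs named below.
Ier3: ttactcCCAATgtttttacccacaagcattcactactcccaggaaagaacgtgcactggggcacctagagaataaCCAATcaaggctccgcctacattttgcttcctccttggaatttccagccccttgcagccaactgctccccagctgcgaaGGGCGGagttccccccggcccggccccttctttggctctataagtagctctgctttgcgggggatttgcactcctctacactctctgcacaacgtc
Jund: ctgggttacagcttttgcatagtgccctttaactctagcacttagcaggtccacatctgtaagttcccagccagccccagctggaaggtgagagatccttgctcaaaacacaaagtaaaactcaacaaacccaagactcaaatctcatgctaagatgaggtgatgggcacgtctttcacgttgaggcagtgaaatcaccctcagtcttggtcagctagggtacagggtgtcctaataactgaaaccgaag
Fos: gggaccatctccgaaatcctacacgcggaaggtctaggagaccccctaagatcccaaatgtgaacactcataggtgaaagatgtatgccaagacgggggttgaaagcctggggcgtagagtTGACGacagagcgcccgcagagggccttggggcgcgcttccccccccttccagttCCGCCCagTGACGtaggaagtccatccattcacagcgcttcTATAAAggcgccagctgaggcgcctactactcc
Dusp1: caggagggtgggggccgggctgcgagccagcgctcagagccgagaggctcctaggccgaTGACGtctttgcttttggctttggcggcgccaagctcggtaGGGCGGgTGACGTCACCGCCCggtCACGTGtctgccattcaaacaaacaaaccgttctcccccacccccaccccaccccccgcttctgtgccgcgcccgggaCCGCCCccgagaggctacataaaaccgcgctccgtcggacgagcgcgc

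The motifs searched were the cyclic AMP response element TGACGTCA, which CREB binds, its shorter core TGACG, the AP-1 site TGANTCA, the CArG box bound by SRF (searched by name), the E-box CACGTG bound by Myc with Max, the GC box GGGCGG, the CCAAT box CCAAT and the TATA box TATAAA. A full element also counts as a core. RefSeq windows were matched for 7 members (Fos, Fosb, Jun, Junb, Jund, Ier3 and Dusp1), and shares over 32851 windows of all genes are given for comparison. The core was found in 4 of the 7, Fos, Fosb, Junb and Dusp1, against 17.8% of all windows. In Fos it begins 129 and 66 bases before the start, the nearer copy lying upstream of a TATA box that begins 33 bases before it. The full element was found in Dusp1 alone, 143 bases before the start, and in 1.55% of all windows. It overlaps the core on both strands there, and GC boxes lie on either side of it, beginning 150 and 135 bases before the start. Dusp1 also held the E-box, present in 6.02% of all windows. GC boxes were found in 5 of the 7 windows and in 32.7% of all, and CCAAT boxes in 3 of the 7 (Ier3, Jun and Junb) and in 33.8% of all. Ier3 held 1 GC box and 2 CCAAT boxes, and Jund held none of these letters. The TATA box letters were found in Fos alone of the 7 and in 12.4% of all windows. AP-1 sites and CArG boxes were found in 0 of the 7 windows, against 6.75% and 1.47% of all. A match is a description of these letters. Variant spellings of a site, such as a longer AP-1 site, and sites farther from the start were not searched.

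In trophectoderm 4 of the 9 measured genes read below the background under both diets. Fos, Jun, Ier2 and Myc lay below the receptor percentile on all 8 arrays, so no change is read from their differences. Junb, Jund and Egr1 lay above it on all 8 arrays, Ier3 on 6 and Dusp1 on 3. Against the receptors' 99th percentile these fell to 1 array for Junb, 2 for Jund, 0 for Egr1, 0 for Ier3 and 1 for Dusp1. Each array held 4 or 5 of the 9 members above the receptor percentile, whichever the diet, and 4723 to 6635 of the 16015 probe sets. Lying below it was thus the more common state on every array. A filter asking for at least 4 of 8 arrays above the receptor percentile was passed by 4 of the 9 members (Junb, Jund, Egr1 and Ier3) and by 6070 of the 16015 probe sets.

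No member passed the test for diet. With limma at an adjusted p of 0.05 over 16015 probe sets, 0 members were higher and 0 lower with the high fat diet, against 0% and 0.00624% of all probe sets. The smallest limma adjusted p among the members was 0.115. At an unadjusted limma p under 0.05, 5 members (Ier3, Jund, Egr1, Jun and Junb) read higher, against 30.1% of all probe sets, and 0 read lower, against 1.79%. The members with an unadjusted p under 0.05 numbered 2 after median centring, 2 after quantile normalization, 2 after cyclic loess and 1 relative to the receptor percentile. All 4 high fat diet pools lay above all 4 control diet pools for 4 of the 9 (Ier3, Jund, Egr1 and Jun), against 25.4% of all probe sets and 22.3% of those above the receptor percentile on at least 4 arrays. Of the unadjusted calls over all probe sets 94.4% were higher with the deposited values, 67.3% after median centring, 44.1% after cyclic loess and 6.75% relative to the receptor percentile. The opposite order of the groups was seen for 0 members and 0.855% of all probe sets. After each array was centred on its median, Ier3 and Jund alone of the members still had groups apart, which 7.07% of all probe sets had. The median log2 change was +0.29 over the 9 members and +0.22 over all probe sets tested, of which 78.7% had a change above 0. Each array's level moves with diet, and its part in the members' differences was not tested.

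**Figure D1:**
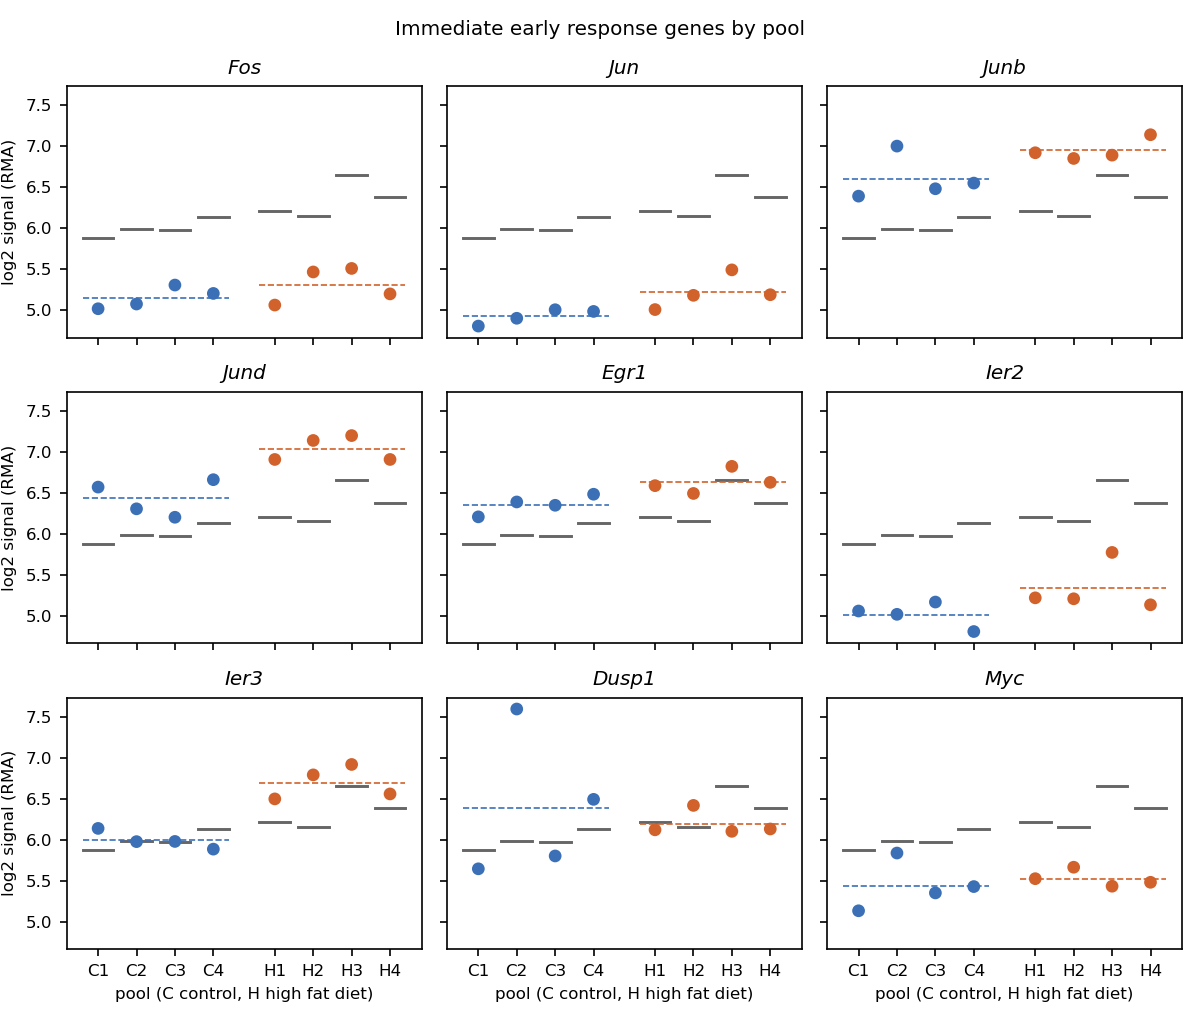
Log2 signal (vertical axis) of the 9 measured genes in each pool, with control diet pools C1 to C4 in blue and high fat diet pools H1 to H4 in orange; dashed lines are group means and grey ticks the receptor percentile of that array. Fos, Jun, Ier2 and Myc lie under the grey tick in every pool, and Dusp1 reaches 7.60 in C2. The groups do not overlap for Ier3, Jund, Egr1 and Jun, with gaps of 0.36, 0.25, 0.0096 and 0.0019 log2 units.

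Ier3, a stress- and growth factor-induced protein that acts on cell survival, had the largest measured difference among the members. Its log2 signal was 6.14, 5.98, 5.98 and 5.89 in control diet pools 1 to 4 and 6.50, 6.79, 6.92 and 6.56 in high fat diet pools 1 to 4. The groups did not overlap, with 0.36 log2 units between the highest control diet pool and the lowest high fat diet pool. The means were 6.00 ± 0.11 and 6.69 ± 0.20 (SD, n = 4 each), a log2 change of +0.70 with an SE of 0.12 and a limma 95% interval of 0.42 to 0.97. The limma adjusted p was 0.115. Control diet pool 1, pool 3 by 0.0017, and all 4 high fat diet pools lay above the receptor percentile, so the control level is partly a bound. With every value below the percentile raised to it, the means differed by +0.63. On the scale of the array median the change was +0.51 (limma adjusted p = 0.35), and the groups lay apart by 0.17. On the scale of the receptor percentile it was +0.34 (limma adjusted p = 0.38), and the groups overlapped. Of all probe sets tested, 97.5% had a smaller log2 change than Ier3.

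Jund, the Jun family member that is present in many resting cells, came next. Its log2 signal was 6.57, 6.31, 6.20 and 6.66 in control diet pools 1 to 4 and 6.91, 7.14, 7.20 and 6.91 in high fat diet pools 1 to 4. Every high fat diet pool was above every control diet pool, by at least 0.25 log2 units. The means were 6.44 ± 0.22 and 7.04 ± 0.15 (SD, n = 4 each), a log2 change of +0.60 with an SE of 0.13 and an interval of 0.29 to 0.91 (limma adjusted p = 0.115). The change was larger than that of 96.2% of all probe sets tested. It was +0.42 on the scale of the array median (limma adjusted p = 0.35), with groups apart by 0.10, and +0.25 on the scale of the receptor percentile (limma adjusted p = 0.445), with overlap. Ier3 and Jund kept a change above 0 in all 18 other settings run, from +0.34 to +0.76 for Ier3 and from +0.25 to +0.68 for Jund, with limma adjusted p between 0.074 and 0.53 for both. Testing all probe sets, filtering dim ones, limma-trend with robust fitting, a replicate block and averaging probe sets cannot move either change. The ranges come from the other scalings, array weights and pools left out.

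**Figure D2:**
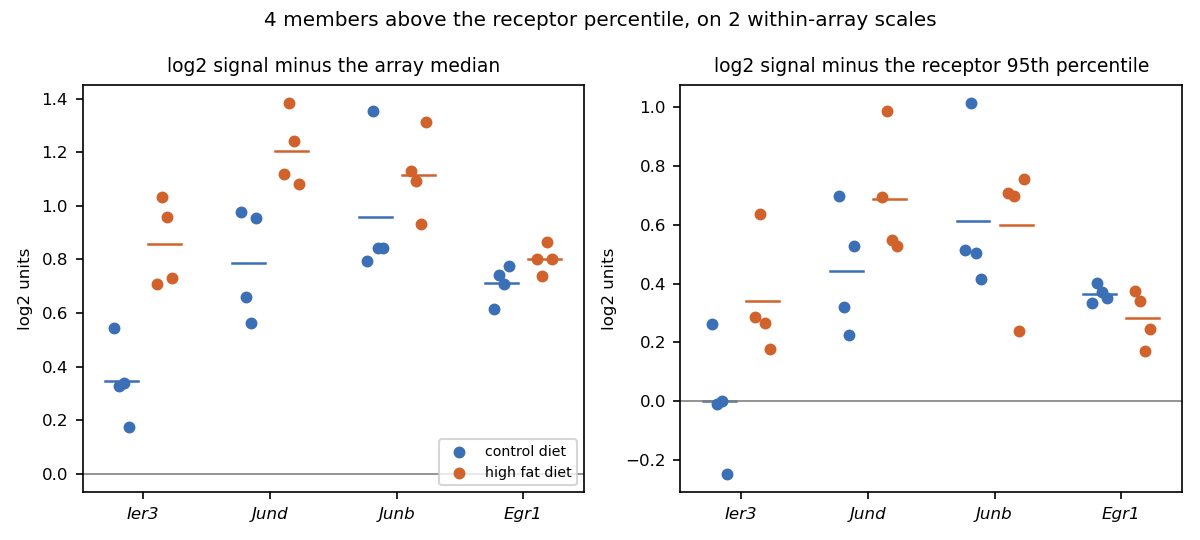
Log2 units of the 4 members that passed the filter, after subtracting the array median (left) or the receptor percentile (right), for 4 control diet pools in blue and 4 high fat diet pools in orange, with bars at group means. Ier3 and Jund keep separate groups on the left scale alone, and Junb and Egr1 overlap on both.

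Junb, the Jun family member required in the mouse placenta, read at 6.39, 7.00, 6.48 and 6.55 in control diet pools 1 to 4 and at 6.92, 6.85, 6.89 and 7.14 in high fat diet pools 1 to 4. The groups overlapped because control diet pool 2 lay above 3 of the high fat diet pools. The means were 6.61 ± 0.27 and 6.95 ± 0.13 (SD, n = 4 each). The log2 change was +0.34 with an SE of 0.15 (limma adjusted p = 0.16). On the scale of the receptor percentile it was -0.01, so its direction depends on the scaling.

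Jun, the main partner of Fos in AP-1, lay below the receptor percentile on every array. Its log2 signal ran from 4.81 to 5.01 over control diet pools and from 5.01 to 5.49 over high fat diet pools, with the highest value in high fat diet pool 3. The groups were apart by only 0.0019 log2 units. The measured difference was +0.29 with an SE of 0.12 (limma adjusted p = 0.14), and -0.06 relative to the receptor percentile.

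Fos, which binds DNA only with a Jun partner, read at 5.02, 5.08, 5.31 and 5.20 in control diet pools 1 to 4 and at 5.06, 5.47, 5.51 and 5.20 in high fat diet pools 1 to 4. The groups overlapped, and relative to the receptor percentile of its own array each value lay between -1.18 and -0.67 log2 units. The measured difference was +0.16 with an SE of 0.13 (limma adjusted p = 0.39), and it was below 0 on each of 4 other scalings.

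Egr1, the zinc finger factor, read at 6.21, 6.39, 6.35 and 6.49 in control diet pools 1 to 4 and at 6.59, 6.49, 6.83 and 6.63 in high fat diet pools 1 to 4. The groups did not overlap, but the gap between them was 0.0096 log2 units. The means were 6.36 ± 0.11 and 6.64 ± 0.14 (SD, n = 4 each). The log2 change of +0.28 with an SE of 0.10 (limma adjusted p = 0.13) lay 0.06 above the median of all probe sets. It was +0.09 relative to the array median, -0.03 with cyclic loess and -0.08 relative to the receptor percentile. The spread of Egr1 between pools of a diet was small, a pooled SD of 0.13, and 17.9% of probe sets had a smaller one.

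Myc, the transcription factor that pairs with Max and drives growth genes, stayed under the receptor percentile on all 8 arrays. Its log2 signal was 5.13, 5.84, 5.35 and 5.43 in control diet pools 1 to 4 and 5.53, 5.67, 5.43 and 5.48 in high fat diet pools 1 to 4. Control diet pool 1 was the lowest and control diet pool 2 the highest, with all high fat diet pools between them. The measured difference was +0.09 with an SE of 0.15 (limma adjusted p = 0.68).

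Dusp1, which removes phosphates from p38 and JNK kinases, varied most between pools. Its log2 signal was 5.65, 7.60, 5.80 and 6.49 in control diet pools 1 to 4 and 6.12, 6.42, 6.10 and 6.13 in high fat diet pools 1 to 4. Control diet pool 2 stood above all others, and control diet pools had an SD of 0.89 against 0.15 for high fat diet pools. The pooled SD of 0.64 was larger than that of 84.7% of all probe sets, and control diet pool 2 was also the highest pool for Myc and the highest control diet pool for Junb. The log2 change was -0.19 with an SE of 0.40 and a limma interval of -1.13 to 0.75 (limma adjusted p = 0.74). Without control diet replicate 2 it was +0.21. Dusp1 lay above the receptor percentile in control diet pools 2 and 4 and high fat diet pool 2.

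Ier2, a nuclear protein of the early response, was below the receptor percentile on all 8 arrays. Its log2 signal was 5.06, 5.02, 5.17 and 4.81 in control diet pools 1 to 4 and 5.22, 5.21, 5.78 and 5.14 in high fat diet pools 1 to 4. The high value belonged to high fat diet pool 3, the array with the highest receptor percentile, and the groups overlapped. The measured difference of +0.32 with an SE of 0.16 (limma adjusted p = 0.20) was +0.17 without that pool. High fat diet pool 3 held the highest value of 6 members, Fos, Jun, Jund, Egr1, Ier2 and Ier3.

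**Figure D3:**
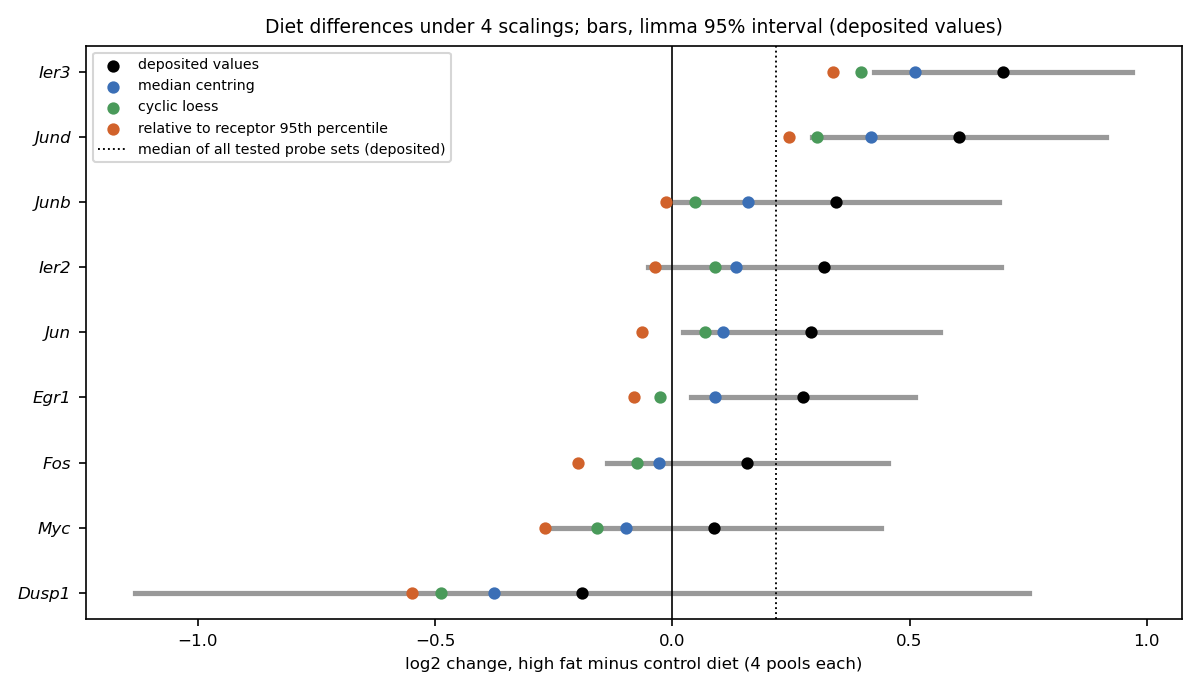
Log2 change with the high fat diet (horizontal axis) of each measured gene for the deposited values (black, with limma 95% intervals as bars), after median centring (blue), after cyclic loess (green) and relative to the receptor percentile (orange). Ier3 and Jund stay above 0 on all 4 scales, Dusp1 lies below 0 on all 4, and the other 6 change sign between scales.

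Other early response genes include later-acting factors and feedback proteins. Of 45 listed, 44 were measured and 28 lay above the receptor percentile on at least 4 arrays. None passed limma over all probe sets, and at an unadjusted p under 0.05, 18 of the 44 read higher and 1 lower, against 30.1% and 1.79% of all probe sets. The same shares apply to the counts of the lists that follow. Their median log2 change was +0.32, from -0.80 to +0.77, against a median of +0.22 over all probe sets. Klf2, a Krüppel-like factor, read at 6.66 ± 0.07 in control and 7.30 ± 0.18 in high fat diet pools (SD, n = 4 each; limma adjusted p = 0.115). Socs3, a feedback inhibitor of cytokine receptors, read at 6.76 ± 0.11 and 7.22 ± 0.17 (limma adjusted p = 0.115). The kinase Plk3 differed by +0.74 but lay above the receptor percentile on 0 control diet arrays and 2 of the 4 high fat ones. Gadd45b, a stress protein, lay above it on 0 of 8 arrays.

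Feedback on MAP kinases comes from phosphatases and from proteins that block the cascade. Of 16 listed phosphatases and Sprouty or Spred proteins, 15 were measured, 5 lay above the receptor percentile on at least 4 arrays, 0 passed limma over all probe sets and 4 read higher at an unadjusted p under 0.05. The median log2 change was +0.29, from -0.48 to +0.69. Dusp2, a nuclear phosphatase of ERK and p38, read at 6.04 ± 0.06 and 6.58 ± 0.18 (SD, n = 4 each; limma adjusted p = 0.115). Dusp9, a cytoplasmic phosphatase needed in the mouse placenta, read at 6.44 ± 0.11 and 6.82 ± 0.26 (limma adjusted p = 0.13). Spred2 differed by +0.69, with 1 of 8 arrays above the receptor percentile, and Spred1 by +0.29, with 0 of 8.

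No kinase or factor listed upstream of the members passed limma over all probe sets. Of 23 listed kinases of the cascade 14 were measured, with 1 higher and 0 lower at an unadjusted p under 0.05. Their median log2 change was +0.11, from -0.78 to +1.42. Mapk7, the kinase ERK5, read at 6.21 ± 0.17 and 6.53 ± 0.15 (SD, n = 4 each; limma adjusted p = 0.13), and Rps6ka3 lay above the receptor percentile on 0 of 8 arrays. Of 14 listed transcription factors 13 were measured, with 5 higher and 0 lower at an unadjusted p under 0.05. Their median log2 change was +0.15, from -0.78 for Creb1, the CREB gene, to +0.66 for Atf1. Srf itself read at 6.12 ± 0.13 and 6.45 ± 0.16 (limma adjusted p = 0.12). Atf1, a CREB relative, read at 6.82 ± 0.27 and 7.48 ± 0.20, and the CREB coactivator Crtc1 at 6.71 ± 0.06 and 7.13 ± 0.21 (limma adjusted p = 0.115 for each). Elk4, a ternary complex factor, differed by +0.43 but lay above the receptor percentile on 0 of 8 arrays.

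No listed dimer partner passed limma over all probe sets. Of 11 other AP-1 partners 7 were measured, with 1 higher and 0 lower at an unadjusted p under 0.05. Their median log2 change was +0.08, from -0.78 for Atf4 to +0.53 for Jdp2. Jdp2, a repressor that pairs with Jun proteins, differed by +0.53 (limma adjusted p = 0.13), above the receptor percentile on 2 control diet arrays and on all 4 high fat ones. Atf5 differed by +0.23 (limma adjusted p = 0.19). All 12 listed Myc family members and partners were measured, with 4 higher and 0 lower and a median of +0.25. The changes ran from -0.81 for Mga to +0.58 for Mxd3, with Max at -0.36. Mlxip, which pairs with the Max-like protein Mlx, differed by +0.42, and the Myc antagonist Mxi1 by +0.41, with 4 and 0 of 8 arrays above the receptor percentile (limma adjusted p = 0.115 for each).

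**Figure D4:**
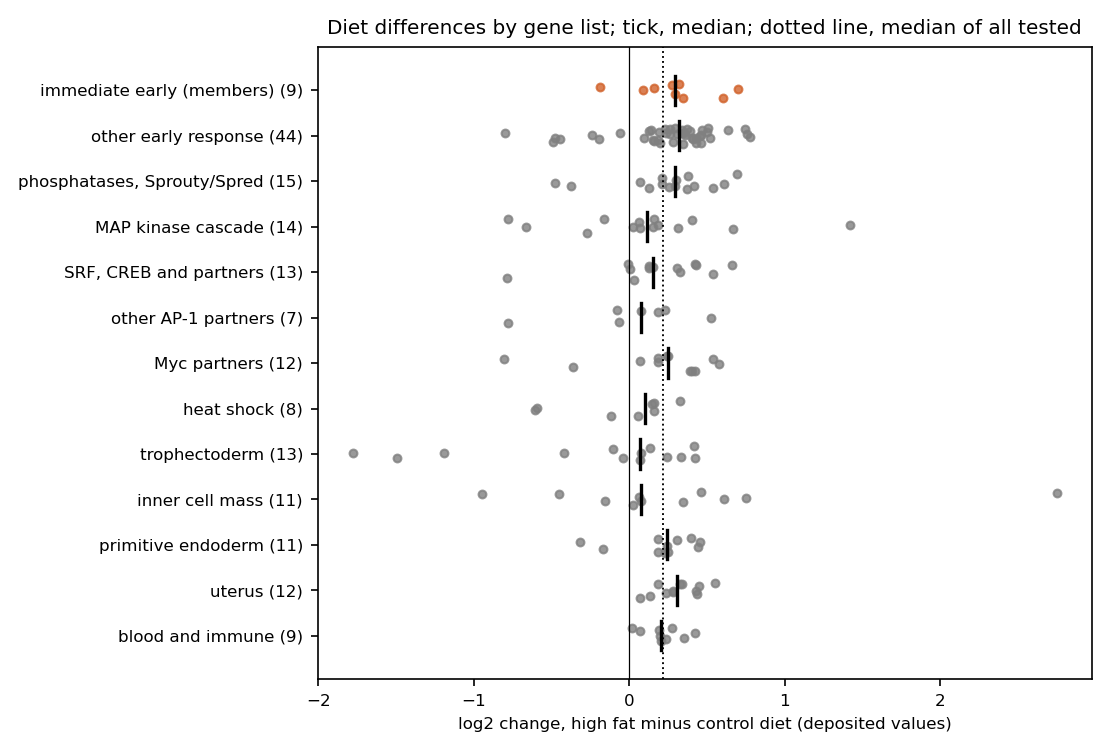
Log2 change with the high fat diet (horizontal axis) of every measured gene, by list, with the number measured in parentheses; orange points are the 9 members, black ticks the list medians, and the dotted line the median of all probe sets tested, +0.22. The medians run from +0.07 for trophectoderm markers to +0.32 for other early response genes, with the members at +0.29, the MAP kinase phosphatases at +0.29, uterine markers at +0.30, Myc partners at +0.25 and primitive endoderm markers at +0.24.

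Heat shock genes, which code for protein chaperones and their regulators, had a median log2 change of +0.10, from -0.61 to +0.32. Of 15 listed 8 were measured, 4 of them above the receptor percentile on at least 4 arrays, and 0 passed limma over all probe sets. Hspa1a, the classic inducible heat shock gene, and Hsp90aa1 lay above it on 0 of 8 arrays. The heat shock factor Hsf2 read at 8.44 ± 0.45 and 7.84 ± 0.28 (SD, n = 4 each; limma adjusted p = 0.14).

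Markers of cell types in or near the dissected piece were set beside the members. The mean log2 level of the 13 trophectoderm markers ran from 8.36 to 8.58 over control diet pools and from 7.80 to 8.45 over high fat diet pools. Their median log2 change was +0.07, from -1.78 to +0.43, with 1 higher and 2 lower at an unadjusted p under 0.05. Fgfr2, a fibroblast growth factor receptor of this lineage, read at 9.18 ± 0.95 and 7.41 ± 0.60 (SD, n = 4 each; limma adjusted p = 0.115), and Esx1, a placental homeobox gene, lay above the receptor percentile on 0 of 8 arrays. For 11 inner cell mass markers the ranges were 5.96 to 7.19 and 6.39 to 7.05, with 6 above the receptor percentile on at least 4 arrays and Sox2, Esrrb and Dppa4 on none. Their median log2 change was +0.07, from -0.95 for Tdgf1 to +2.75 for Utf1, with 3 higher and 0 lower at an unadjusted p under 0.05. Nanog differed by -0.45 and Pou5f1 by +0.07. Fgf4, a growth factor of the inner cell mass, differed by +0.75 (limma adjusted p = 0.115) and Esrrb by +0.35. For 11 primitive endoderm markers the ranges were 6.17 to 6.48 and 6.36 to 6.67, with 7 above on at least 4 arrays and Sox7 and Pdgfra on none. Their median was +0.24, from -0.32 for Sparc to +0.45 for Col4a1, with 5 higher and 0 lower. Col4a1, a basement membrane collagen, differed by +0.45 and the factor Hnf4a by +0.44 (limma adjusted p = 0.115 for each). Hnf4a lay above the receptor percentile on 3 of 8 arrays.

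Uterine and blood markers lay mostly at the background. The 12 uterine markers ranged from 5.28 to 5.47 over control diet pools and from 5.56 to 5.96 over high fat diet pools, with 3 above the receptor percentile on at least 4 arrays and Ltf, Lcn2, Muc1, Pgr, Calb1, Dcn, Lum, Vim and Acta2 on none. Their median was +0.30, from +0.07 to +0.55, with 8 higher and 0 lower at an unadjusted p under 0.05. Col1a1 differed by +0.55 (limma adjusted p = 0.115) and Calb1 by +0.28. The 9 blood and immune markers ranged from 4.85 to 4.95 and from 5.05 to 5.33, with Cx3cr1 alone above on at least 4 arrays and Ptprc, Cd74, Csf1r, Adgre1, Cd68, S100a8 and Tyrobp on none. Their median was +0.20, from +0.02 to +0.42, with 5 higher and 0 lower. Cx3cr1 differed by +0.27 and Cd74 by +0.36 (limma adjusted p = 0.115 for each). In none of the cell type lists did a gene pass limma over all probe sets. All 12 lists other than the members had a median above 0 in the deposited values and below 0 relative to the receptor percentile. That scale lowers every log2 change by the same 0.36. The part of other cells in the members' values was not tested.

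Genes that followed a member most closely from pool to pool were found by Pearson's r over the 8 arrays, after subtraction of each array's median, among genes above the receptor percentile on at least 4 arrays. These r values pool both diets and describe 8 points for each of up to 6070 probe sets, so high values arise readily. For Ier3 they were Fbxo17 (r = 0.95), Selenov (r = 0.94) and Klf13 (r = 0.93). For Jund they were Myrip (r = 0.94), Vegfa (r = 0.94) and Gng4 (r = 0.93). For Junb they were Tle1 (r = 0.89), Cisd2 (r = 0.88) and Pcyox1l (r = 0.86). For Egr1 they were Rims4 (r = 0.97), N4bp3 (r = 0.97) and Pou3f3 (r = 0.97). In that order r was 0.99, 0.98 and 0.98 with the deposited values and 0.94, 0.97 and 0.97 with quantile normalization. With cyclic loess it was -0.05, 0.27 and 0.23, so the likeness to Egr1 was lost on that scale and depends on the scaling.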

How the data were processed

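Per the labels' protocols, PicoPure-isolated RNA went through 2 rounds of amplification, Ovation PICO WTA followed by TransPlex WTA. The authors deposited log2 values of 23332 probe sets on 8 arrays. RMA and Partek appear, with no version, in the submitters' processing notes; a genome build was not given in the sources used. The platform annotation gave 14996 probe sets 1 symbol, 1019 several and 7317 none. The 16015 with a symbol were tested by limma's lmFit and eBayes (limma 3.58.1, R 4.3.3; Benjamini-Hochberg adjustment at 0.05, two-sided), with no replicate block and no filter on dim probe sets. The test was checked on simulated data, drawn independently for each probe set and with no shift in level between arrays. That check does not cover the level difference by diet seen here. Symbols were updated by gene ID through RefSeq (GRCm38.p6). The probe set of highest mean stood for a gene. Alternatives were median centring, quantile normalization, cyclic loess, all probe sets, a filter on dim ones, limma-trend with robust fitting, array weights, a replicate block and each pool left out.

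All members are named. Each other list gave up to 4 genes with the smallest limma p (4 for early response genes, phosphatases and transcription factors, 2 for the others, a number set after the values were seen). Each member past the filter gave 3 genes of like pattern. The members and lists were chosen with earlier results of these data known. The receptor percentile scaling was added after the data were seen.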

Additional observations from a re-analysis of the deposited data

Results flagged for a closer look

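The flagged groups each had 1 pool whose distance to the nearest other pool exceeded Dixon's 95% critical value. Of 78 groups of 4 pools, from 39 genes, 5 were flagged, and chance flags about 1 in 20, or 3.9 here. Among the members, Ier2 was flagged in the high fat diet pools, where replicate 3 read 5.78 and the others 5.14 to 5.22 (ratio 0.867). That pool had the highest receptor percentile. Dusp1 was flagged in the high fat diet pools, where replicate 2 read 6.42 and the others 6.10 to 6.13 (ratio 0.909), while its widest spread was among control diet pools. Spred2 was flagged in the high fat diet pools for replicate 4, at 6.92 against 5.91 to 6.05 (ratio 0.863). Mlxip was flagged for high fat diet replicate 3, at 6.26 against 6.48 to 6.52 (ratio 0.869), and Col1a1 for the same pool, at 8.23 against 7.68 to 7.73 (ratio 0.896).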

How the results depend on the processing

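No member passed the limma threshold in any setting run, and 8 of 9 members read above 0 with the deposited values, 6 after median centring or quantile normalization, 5 with cyclic loess and 2 relative to the receptor percentile, a scaling chosen after seeing the data. The median of all probe sets was +0.22 with the deposited values, +0.03 with median centring, +0.06 with quantile normalization, -0.0012 with cyclic loess and -0.14 relative to the receptor percentile. Of probe sets at an unadjusted limma p under 0.05, 94.4%, 67.3%, 76.8%, 44.1% and 6.75% read higher in that order. The members' median log2 change, +0.29, was +0.107 with median centring, +0.112 with quantile normalization, +0.0487 with cyclic loess, +0.47 with the filter on dim probe sets, which leaves 4 members, and -0.0646 relative to the receptor percentile. With that filter the median of all probe sets was +0.23. Ier3 passed the filter on 4 high fat diet and 2 control diet arrays, so the filtered member median is not independent of the diet difference.

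Some log2 changes above 0 in the deposited values fell below 0 on other scales. With median centring they were Fos -0.0277 and Myc -0.0979, and with quantile normalization Fos -0.0251 and Myc -0.0955. With cyclic loess they were Fos -0.0743, Egr1 -0.0269, Myc -0.159, Atf5 -0.0186, Esx1 -0.0204 and Cx3cr1 -0.0308, and the r of Egr1 with Rims4 was -0.0517. Relative to the receptor percentile they were Fos -0.199, Jun -0.0646, Junb -0.0128, Egr1 -0.0814, Ier2 -0.037, Myc -0.269, Gadd45b -0.0183, Spred1 -0.0656, Mapk7 -0.0441, Srf -0.0304, Atf5 -0.125, Hsp90aa1 -0.0334, Esx1 -0.115, Esrrb -0.00895, Calb1 -0.0741, Cd74 -0.00188 and Cx3cr1 -0.0853. Subtracting the array median or the receptor percentile lowers every log2 change by the same amount, 0.19 and 0.36 in turn. A change above 0 but smaller than that amount thus falls below 0 on that scale, whatever the gene. Why the arrays differ in level was not tested. With a pool left out, Dusp1 ran from -0.44 to +0.21, above 0 without control diet replicate 2, and Myc from -0.0133 to +0.22, below 0 without control diet replicate 1. Taking the mean over a gene's probe sets changed no member, since each has 1.

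The probe sets lower past the threshold, 1 with the deposited values, were 0 with quantile normalization, 0 with cyclic loess, 0 relative to the receptor percentile and 3 with all 23332 probe sets tested, and 0 to 2 with a pool left out. With the replicate number as a block the count was 0, and the limma adjusted p of Ier3 and Jund was 0.20. The deviations of same-numbered pools from their diet means correlated only weakly (r from -0.02 to 0.08). Such r values cannot show whether same-numbered pools shared a litter or a day, which the labels do not say. Against the receptors' 99th percentile, arrays above background were 1 for Junb, 2 for Jund, 0 for Egr1, 0 for Ier3 and 1 for Dusp1. Signal over background limits what can be read: 4 of 9 members were below it on every array. This is not particular to the members, since only 6070 of 16015 probe sets lay above it on at least 4 arrays.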
